A study of Mus musculus with 12 samples.

Results

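Axon guidance ligands and receptors were followed across sorted cells of the embryonic mouse hypothalamus. The set was chosen by symbol: semaphorins, plexins with neuropilin Nrp2, Eph receptors, ephrins, Slits, Robos, netrins, the Unc5 family, Dcc, Dscam and Reln. It held 69 of the 48709 gene identifiers counted. The cells came from C57BL/6 hypothalami of embryonic day 18, received a reporter virus in culture and grew for a week as neurospheres with basic fibroblast growth factor. An adeno-associated virus at a multiplicity of infection of 10 brought the mCherry reporter of Hcrt (hypocretin) cells, and lentiviral particles at the same multiplicity brought the EGFP reporter of MCH (melanin-concentrating hormone, gene Pmch) cells. Cell sorting then split each kind of culture by its reporter, which gave 4 groups (mCherry-positive and mCherry-negative, EGFP-positive and EGFP-negative) with 3 libraries each. All groups shared strain, age, kind of culture and growth factor, and each negative group was exposed to the same virus as its positive group. The promoter behind each reporter and the number of cultures or embryos behind each library are unknown here, so p-values measure only the spread between these libraries, which may be technical.

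Guidance molecules were first known as cues that steer growing axons, and they also act on migrating neurons, glia and vessels. Semaphorins signal through plexins, with neuropilins as co-receptors for most secreted members. Ephrins bind Eph receptors on neighbouring cells and can signal both ways, Slits act on Robo receptors, and netrins attract through Dcc or repel through Unc5 receptors. Dscam is an immunoglobulin-family adhesion receptor that can also bind netrin, and Reln encodes reelin, a secreted protein that positions migrating neurons through the receptors Vldlr and Lrp8.

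Libraries held 16291110 to 32889829 reads in genes. The transcripts that the reporters stand for were scarce: Hcrt did not exceed 0.393 CPM (the read count scaled to library size with TMM factors over all 12 libraries) in any library, while Pmch stood at 17.3 to 19.1 CPM in EGFP-positive and 3.94 to 5.03 CPM in EGFP-negative libraries. Marker lists showed mixed cells in every group, and mCherry-positive replicate 1 stood apart from replicates 2 and 3 in pituitary and microglia markers. Pituitary markers were also lowest in replicate 1 among the mCherry-negative libraries. Replicates 2 and 3 of the mCherry-positive cells were not alike throughout. The summed level of 8 mural and fibroblast genes was 83.9 CPM in replicate 2, against 205 and 175 CPM in replicates 1 and 3. The summed level of 8 astrocyte genes was 4727 to 21343 CPM, that of 8 oligodendrocyte genes 1117 to 4858 CPM and that of 8 neuron genes 904 to 2091 CPM. In such bulk samples, fewer cells of a type and less RNA per cell cannot be told apart.

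The guidance genes covered a wide range of levels, compared between genes as RPKM, the CPM divided by the gene's exon length in kilobases. Plxnb2, a receptor for class 4 semaphorins, led with a mean of 37.7 RPKM over 12 libraries, followed by the ephrin gene Efnb3 at 32.3, the transmembrane semaphorin gene Sema6a at 21.3, Plxnb1 at 20.7 and Plxnb3 at 18.4 RPKM. Among the 10 genes of highest mean were 4 plexins, 3 semaphorins, 2 ephrins and 1 Eph receptor, Ephb6, which lacks kinase activity. The secreted class 3 semaphorins were at lower levels: their highest member, Sema3b, averaged 1.87 RPKM and Sema3a, a classical repellent of axons, 0.256 RPKM (both, and Ntn1 and Robo1 below, are named after their values were seen). Netrin genes Ntn4 and Ntn1 averaged 6.87 and 6.05 RPKM, and the netrin receptor gene Dcc 1.73 RPKM. Robo2 and Robo1 stood at 5.15 and 2.56 RPKM beside the ligand genes Slit1 at 7.19 and Slit2 at 1.74 RPKM. Robo4, the endothelial Robo, was at 0 in 9 libraries with 13 reads in all, Sema3g was at 0 in 9 libraries with 47 reads, and Ntn5 had 30 reads. A count of 0 in a library allows up to 3 reads, or 0.0841 to 0.186 CPM. These 3 genes did not pass the filter on low counts in any comparison fitted with all its libraries. Epha2 also missed it in the mCherry sort, which left 65 members tested there and 66 elsewhere. Up to 68 members were tested when 1 library was left out.

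**Figure D1:**
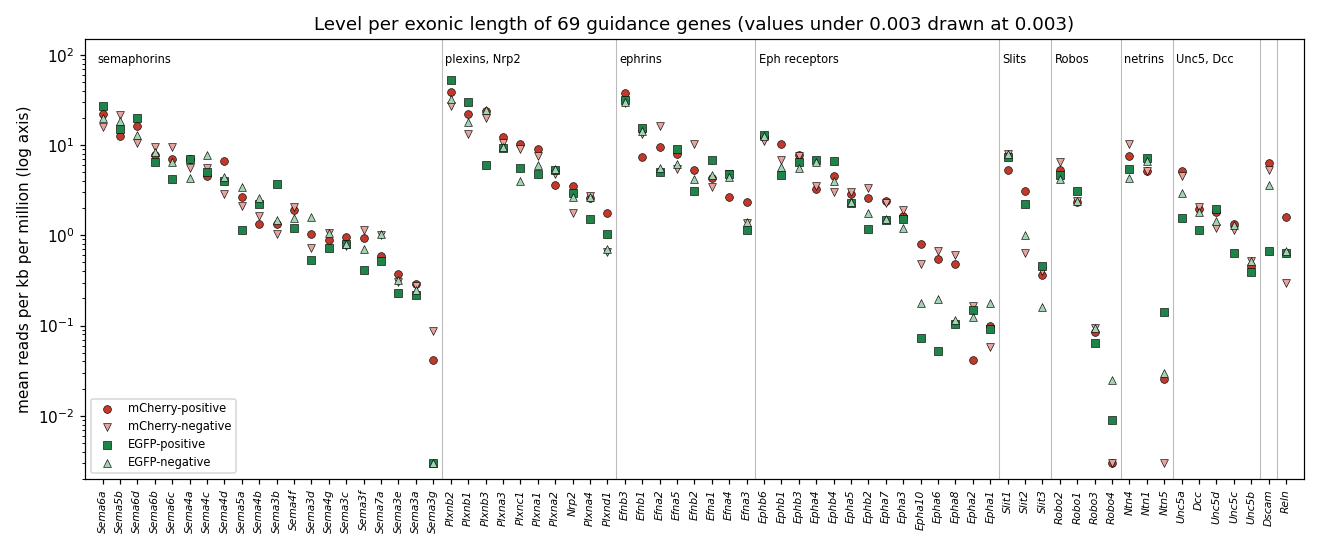
Mean level of each of the 69 genes in the 4 groups (3 libraries each), as RPKM on a log axis (values under 0.003 are drawn at 0.003), ordered by family and level. Plxnb2 and Efnb3 lie near the top in every group, with group means of 26.7 to 53.1 RPKM for Plxnb2 and 29.3 to 37.9 RPKM for Efnb3.

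The first comparison set mCherry-positive cells, in which the Hcrt reporter was on, against the mCherry-negative cells of the same sort. Reln and Slit2 rose in mCherry-positive cells, and 0 guidance genes passed the test as lower. By edgeR 12 members had an unadjusted p under 0.05, a share of 18.5% beside 18.6% of all genes tested. DESeq2 called 7 higher and 4 lower, 16.9% of the members beside 8.50% of all genes. Reelin transcripts stood at 29.4, 36.3 and 46.6 CPM in the positive libraries and at 8.58, 5.01 and 7.72 CPM in the negative ones. The lowest positive library was above the highest negative library by a wide margin. The group means were 37.4 ± 8.67 and 7.10 ± 1.86 CPM (SD, n = 3). The log2 fold change was 2.41 ± 0.29 (SE), 5.31-fold, and edgeR's quasi-likelihood test gave adjusted p = 0.0181. Slit2, a secreted repellent that binds Robo1 and Robo2, stood at 79.2, 66.3 and 90.7 CPM in positive and 24.7, 17.5 and 6.81 CPM in negative libraries. Again the groups did not overlap, and the negative libraries varied more. Its log2 fold change was 2.27 ± 0.40 (SE), a 4.83-fold rise (adjusted p = 0.0349). The 2 calls among 65 tested members are a share of 3.08%, against 1.20% of all 17369 genes tested (0.541% higher and 0.656% lower). The median log2 fold change was 0.09 over the members and 0.02 over all genes.

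The number of calls in this sort depended on single libraries. In the fit that left out mCherry-negative replicate 1, edgeR called 0 of all genes tested, with 3673 at an unadjusted p under 0.05. It also called 0 genes when negative replicate 2 (2764 at an unadjusted p under 0.05) or positive replicate 3 (2439) was left out. Reln lost its call without mCherry-positive replicate 3 (adjusted p 0.141), mCherry-negative replicate 1 or mCherry-negative replicate 2, and Slit2 lost it without any of those 3 or without mCherry-positive replicate 2 (adjusted p up to 0.170). With 1 library left out the log2 fold change of Reln stayed between 2.22 and 2.57 and that of Slit2 between 1.93 and 2.69.

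Both genes lie on chromosome 5 of GRCm38, Reln (ENSMUSG00000042453) from 21884454 to 22344702 on the minus strand and Slit2 (ENSMUSG00000031558) from 47983138 to 48307733 on the plus strand. Their promoters are shown because these are the members that rose in this sort. Each run is the stretch of 250 bases before the RefSeq start on GRCm38.p6, 5′ to 3′ on the gene's strand. Capitals mark matches to any of 4 motifs, searched on both strands. These were the GC box, spelled GGGCGG, then the TATA motif, spelled TATAAA, then an E-box, spelled CAGCTG, and finally the Sox core, spelled ACAAAG.
Reln (chr5:22344706-22344955, minus strand): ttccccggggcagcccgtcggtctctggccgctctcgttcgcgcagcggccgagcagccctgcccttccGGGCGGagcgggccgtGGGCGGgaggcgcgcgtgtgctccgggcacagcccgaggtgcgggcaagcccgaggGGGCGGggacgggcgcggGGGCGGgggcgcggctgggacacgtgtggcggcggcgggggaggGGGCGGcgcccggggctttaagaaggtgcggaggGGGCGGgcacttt
Slit2 (chr5:47982905-47983154, plus strand): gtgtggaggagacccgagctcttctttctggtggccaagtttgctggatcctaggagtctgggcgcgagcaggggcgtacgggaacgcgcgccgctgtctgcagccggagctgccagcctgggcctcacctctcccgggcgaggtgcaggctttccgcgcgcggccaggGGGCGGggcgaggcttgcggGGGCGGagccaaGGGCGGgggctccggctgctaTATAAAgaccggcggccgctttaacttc
The Reln window held 6 GC boxes, 37 CpG dinucleotides and 80.0% G and C. The Slit2 window held 3 GC boxes, 25 CpG dinucleotides and 1 match to the TATA motif. A GC box occurs in 42.7% of 17486 protein-coding windows of this length (32.9% of all 27018 gene windows) and the TATA motif in 12.4% (12.97% of all). Of 59 members matched to a window by symbol, 42 held a GC box and 2 the TATA motif. A match is a description of letters only.

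Several other ligands and receptors had separate ranges in mCherry-positive and mCherry-negative libraries without passing the test. They are named here after their values were seen. Sema4d, the plexin-B1 ligand, stood at 50.9 ± 11.3 against 21.8 ± 7.19 CPM (SD, n = 3), with an adjusted p of 0.0687. Efnb2, the transmembrane ephrin-B2, stood at 35.6, 35.5 and 38.3 CPM against 85.5, 52.3 and 71.7 CPM, with an adjusted p of 0.0690. Efnb1 (25.5 ± 3.31 against 45.9 ± 9.33 CPM) and Sema5b (90.2 ± 11.2 against 153 ± 14.3 CPM) were on the same side, at adjusted p of 0.0983 and 0.0690. On the other side Nrp2, a co-receptor for secreted semaphorins, stood at 41.9 ± 10.7 against 20.9 ± 5.38 CPM, with an adjusted p of 0.0983. In all, 9 members were higher in every mCherry-positive than in every mCherry-negative library and 6 were lower, beside 11.8% and 14.0% of all genes tested. The 4 ephrins Efna2, Efna4, Efnb1 and Efnb2 made up most of the 6, with Sema5b and Slit1.

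The most abundant family members had no call in the mCherry sort. Plxnb2 stood at 295 ± 61.2 against 206 ± 73.5 CPM (SD, n = 3; log2 fold change 0.53 ± 0.26 SE), Sema6a at 196 ± 12.9 against 140.3 ± 42.6 CPM (0.49 ± 0.22 SE) and Efnb3 at 121 ± 26.8 against 93.3 ± 16.4 CPM (0.38 ± 0.22 SE). For Ephb6 the log2 fold change was 0.16 ± 0.19 (SE), for Ntn4 -0.43 ± 0.25, for Robo2 -0.29 ± 0.26 and for Slit1 -0.58 ± 0.38. For the netrin receptors it was -0.07 ± 0.41 (Dcc) and 0.18 ± 0.40 (Unc5a), and for Dscam 0.27 ± 0.25.

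Other cell markers moved in this sort as well. The summed level of 7 dividing cell genes was 212 to 317 CPM in mCherry-positive and 599.6 to 770.3 CPM in mCherry-negative libraries, with 4 genes called lower. The 8 astrocyte genes summed to 9369 to 13539.7 CPM against 4727 to 8535 CPM. The 7 pituitary genes summed to 6.65 CPM in mCherry-positive replicate 1 but to 2259 and 5094 CPM in replicates 2 and 3. In mCherry-negative cells they summed to 5.62 CPM in replicate 1 and to 218 and 173 CPM in replicates 2 and 3. The 8 microglia and macrophage genes summed to 588 CPM in mCherry-positive replicate 1 and to 67.8 and 75.8 CPM in replicates 2 and 3, against 27.7 to 153 CPM in the negative libraries. Without mCherry-positive replicate 1 the log2 fold changes were 2.55 for Reln (adjusted p = 0.0219) and 2.27 for Slit2 (adjusted p = 0.0395). The part of these cell types in the calls was not tested.

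**Figure D2:**
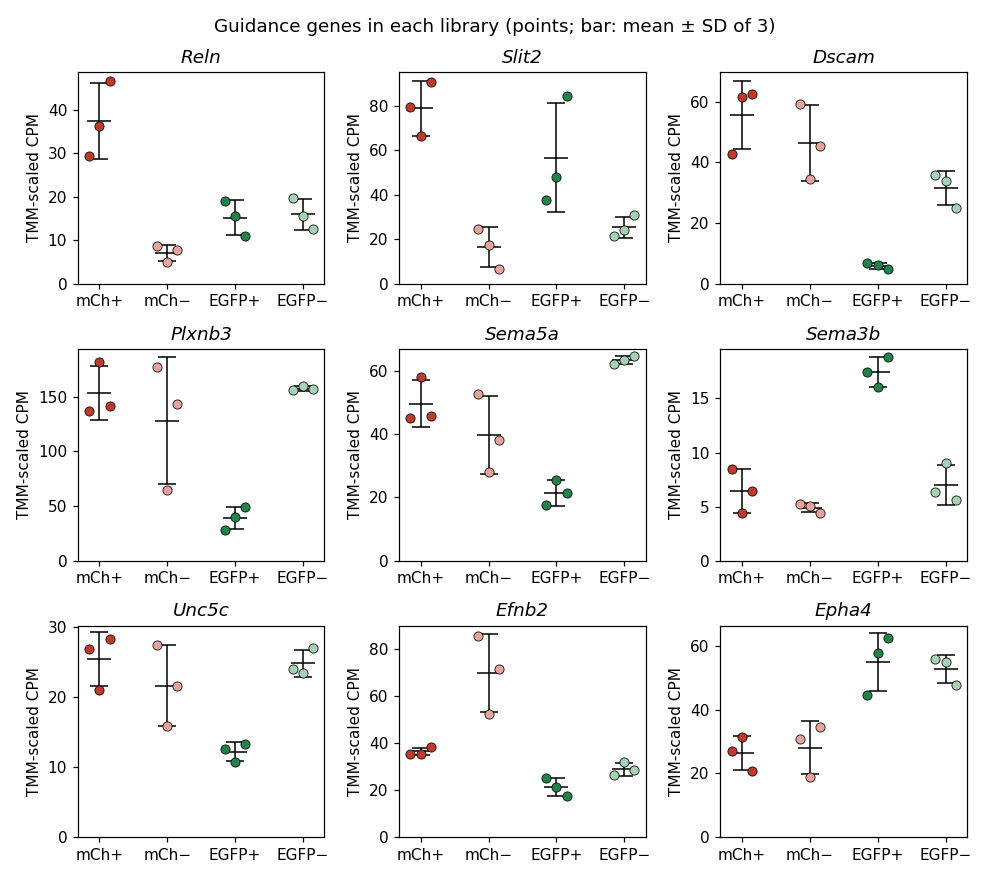
TMM-scaled CPM of 9 guidance genes in each library (points, replicates 1 to 3 from left to right) with mean ± SD, with mCh+ and mCh− for the positive and negative cells of the mCherry sort and EGFP+ and EGFP− for those of the EGFP sort. Reln is high in mCherry-positive libraries alone, and Dscam is at 4.74 to 6.77 CPM in EGFP-positive libraries against 25.1 CPM or more elsewhere.

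The second comparison did the same for the MCH reporter. Dscam, the semaphorin receptor Plxnb3 and its ligand Sema5a fell most clearly in EGFP-positive cells, while Sema3b and Slit2 rose. Of 66 members tested, 7 rose and 9 fell by edgeR's quasi-likelihood test, together 24.2%, against 16.1% of all 16326 genes tested (8.99% higher and 7.07% lower). The median log2 fold change was -0.11 over the members and -0.01 over all genes. The spread between libraries, as edgeR's common coefficient of variation, was 0.382 in the mCherry sort and 0.189 in the EGFP sort. With 1 estimate of the spread for all 12 libraries, 9 members were called in the mCherry sort and 5 in the EGFP sort. The shares of all genes were then 9.48% and 4.43%. The numbers of calls therefore cannot be compared between the sorts.

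The semaphorins gave 6 of the calls, 4 lower and 2 higher among 19 tested. Sema5a, a transmembrane semaphorin with thrombospondin repeats that binds plexin-B3, stood at 17.4, 25.4 and 21.2 CPM in EGFP-positive and 62.1, 63.3 and 64.5 CPM in EGFP-negative libraries. The negative libraries were nearly equal and far above the positive ones. It fell by 1.58 ± 0.16 (SE) on the log2 scale (adjusted p = 4.83e-04). Sema3d, a secreted class 3 member, fell by 1.57 ± 0.39 (SE) on the log2 scale, from 13.7 ± 1.73 to 4.60 ± 2.73 CPM (SD, n = 3). Sema4c, a plexin-B2 ligand, and the class 6 member Sema6c fell by 0.66 ± 0.15 and 0.65 ± 0.16 (SE). In the other direction Sema3b stood at 17.4, 16.1 and 18.9 CPM in positive and 6.32, 9.06 and 5.60 CPM in negative libraries. All 3 positive libraries were above all negative ones, with a log2 fold change of 1.29 ± 0.21 (SE) and an adjusted p of 0.00416. Sema4a rose by less, at 37.9 ± 3.24 against 23.2 ± 4.52 CPM (SD, n = 3; log2 fold change 0.68 ± 0.18 SE). The abundant Sema6a was not called, at 239.8 ± 66.6 against 173 ± 11.8 CPM (0.45 ± 0.19 SE).

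Among their receptors the 3 B-type plexins moved in opposite directions. Plxnb3 stood at 28.4, 39.5 and 48.8 CPM in EGFP-positive and 156, 159.9 and 157 CPM in EGFP-negative libraries. The groups lay far apart, with a log2 fold change of -2.03 ± 0.18 (SE), 4.09-fold lower in positive cells, and an adjusted p of 3.21e-04. Plxnb1, the Sema4d receptor, stood at 209.97, 286 and 358 CPM against 169.6, 176 and 168 CPM, and Plxnb2 at 290.5, 429 and 511 CPM against 242, 263 and 254 CPM. EGFP-positive replicate 1 was the lowest positive library for both genes and still above every negative one. Their log2 fold changes were 0.71 ± 0.17 and 0.68 ± 0.18 (SE), with adjusted p of 0.0224 and 0.0320. Plxna4, a receptor for class 3 and class 6 semaphorins, fell by 0.80 ± 0.17 (SE), while Plxna3 (-0.03 ± 0.18 SE) and Nrp2 (0.11 ± 0.23 SE) had no call.

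Dscam and 2 netrin receptors, Unc5c and Unc5a, fell in EGFP-positive cells. Dscam stood at 6.77, 6.18 and 4.74 CPM in EGFP-positive and 35.8, 33.8 and 25.1 CPM in EGFP-negative libraries. This was the largest change among the members called in the EGFP sort, with a log2 fold change of -2.45 ± 0.21 (SE), 5.46-fold lower, and an adjusted p of 2.61e-04. Unc5c, a receptor for netrin repulsion, stood at 12.7, 10.8 and 13.3 CPM against 24.1, 23.4 and 27.1 CPM. Its groups did not overlap, and it fell by 1.04 ± 0.16 (SE), with an adjusted p of 0.00304. Unc5a fell by 0.94 ± 0.21 (SE), from 12.2 ± 0.614 to 6.47 ± 1.48 CPM (SD, n = 3). Dcc had no call, at 14.98 ± 5.54 against 23.7 ± 2.30 CPM (-0.67 ± 0.24 SE, adjusted p 0.0938), nor had the netrin gene Ntn4 (0.32 ± 0.15 SE).

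Slit2 was the member called higher in both sorts. It stood at 37.7, 48.0 and 84.3 CPM in EGFP-positive and 21.5, 23.9 and 30.7 CPM in EGFP-negative libraries, without overlap but with a wide spread among positive libraries. It rose by 1.15 ± 0.28 (SE) on the log2 scale (adjusted p = 0.0234). By edgeR this call was lost without EGFP-positive replicate 2 or any EGFP-negative replicate (adjusted p up to 0.104). It was also lost in the fit of all 12 libraries (0.0971), and the call in the mCherry sort depended on single libraries too. Slit1 (-0.12 ± 0.17 SE) and the receptor gene Robo2 (0.14 ± 0.25 SE) had no call. Among Eph receptors Ephb4, the main receptor for ephrin-B2, rose by 0.73 ± 0.15 (SE), at 31.1 ± 3.09 against 18.6 ± 1.70 CPM (SD, n = 3). Efna5, a lipid-anchored ephrin, rose by 0.55 ± 0.14 (SE), at 36.8 ± 2.67 against 24.7 ± 2.55 CPM. Efnb3 (0.07 ± 0.11 SE) and Ephb6 (-0.01 ± 0.15 SE) were high in all libraries and not called, and Reln was not called (-0.10 ± 0.24 SE).

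Of the 16 calls, 5 stood in all 6 fits with 1 library left out: Dscam, Plxnb3, Sema5a, Unc5c (log2 fold change -1.10 to -0.95) and Sema3b (1.16 to 1.53, adjusted p at most 0.0286). The number of calls fell to 7 without EGFP-positive replicate 2, 8 without EGFP-negative replicate 1, 5 without EGFP-negative replicate 2 and 7 without EGFP-negative replicate 3, and it rose to 30 without EGFP-positive replicate 1 (15 higher and 15 lower). The calls over all genes moved with them: 6.72% to 7.92% of all genes tested were called in the 4 fits with 5 to 8 member calls, and 30.9% in the fit with 30, where the members' share was 45.5%. The same 5 were the calls left when all 12 libraries shared 1 estimate of the spread.

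The promoters of Dscam and Plxnb3 are shown as those of the members that fell most in the EGFP sort. Dscam (ENSMUSG00000050272) lies on chromosome 16 from 96590840 to 97170752 on the minus strand, and Plxnb3 (ENSMUSG00000031385) on chromosome X from 73757090 to 73772514 on the plus strand. Windows and capitals are as for Reln and Slit2.
Dscam (chr16:97170736-97170985, minus strand): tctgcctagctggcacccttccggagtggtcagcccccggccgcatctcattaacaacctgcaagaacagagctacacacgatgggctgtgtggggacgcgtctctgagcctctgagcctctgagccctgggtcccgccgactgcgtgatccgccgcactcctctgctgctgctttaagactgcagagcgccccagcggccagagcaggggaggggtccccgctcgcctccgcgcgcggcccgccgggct
Plxnb3 (chrX:73756853-73757102, plus strand): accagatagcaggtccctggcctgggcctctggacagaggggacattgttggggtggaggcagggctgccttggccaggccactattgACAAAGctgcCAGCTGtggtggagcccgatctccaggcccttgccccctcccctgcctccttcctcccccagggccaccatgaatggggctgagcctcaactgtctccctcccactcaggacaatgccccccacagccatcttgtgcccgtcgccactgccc
The Dscam window held none of the 4 motifs, with 21 CpG dinucleotides and 68.0% G and C. The Plxnb3 window held 1 E-box and 1 Sox core, with 3 CpG dinucleotides and 65.2% G and C. The E-box occurs in 11.6% and the Sox core in 14.9% of protein-coding windows (12.8% and 16.5% of all gene windows), and in 9 and 6 of the 59 members' windows. The median member window held 17 CpG dinucleotides, against 10 in protein-coding genes.

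Markers of several cell types moved with these calls. The 8 oligodendrocyte genes summed to 1117 to 1145 CPM in EGFP-positive and 3205 to 3342 CPM in EGFP-negative libraries, and the 7 oligodendrocyte precursor genes to 462 to 607 CPM against 1877 to 2068 CPM, with 6 genes called lower in each list. Neuron genes summed to 904 to 1255 CPM against 1371 to 1441 CPM, with 5 of 8 called lower, and mural and fibroblast genes to 90.7 to 147 CPM against 416 to 453 CPM, with 5 of 8 called lower and 2 higher. Microglia and macrophage genes summed to 6.02 to 6.28 CPM against 26.4 to 43.8 CPM, with 6 of 8 called lower, and pituitary genes to 39.1 to 67.0 CPM against 349 to 455 CPM, with 3 of 6 tested called lower. Astrocyte genes summed to 16874 to 21343 CPM against 8842 to 9123 CPM, with 7 of 8 called higher and 1 lower. Ependymal genes summed to 143 to 164 CPM against 78.1 to 89.8 CPM, with 5 of 6 called higher, and radial glia and progenitor genes to 5020.02 to 7248 CPM against 4022 to 4480.1 CPM, with 3 of 7 called higher. The part of these cell types in the guidance calls was not tested. In the mCherry sort the oligodendrocyte genes summed to 3132 to 4858 CPM in positive and 2638 to 3348 CPM in negative libraries, and the precursor genes to 968 to 1327 CPM against 1397 to 1872 CPM, lower in every positive library. The log2 fold changes of Plxnb3, Sema5a and Dscam there were 0.27 ± 0.32, 0.33 ± 0.25 and 0.27 ± 0.25 (SE).

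**Figure D3:**
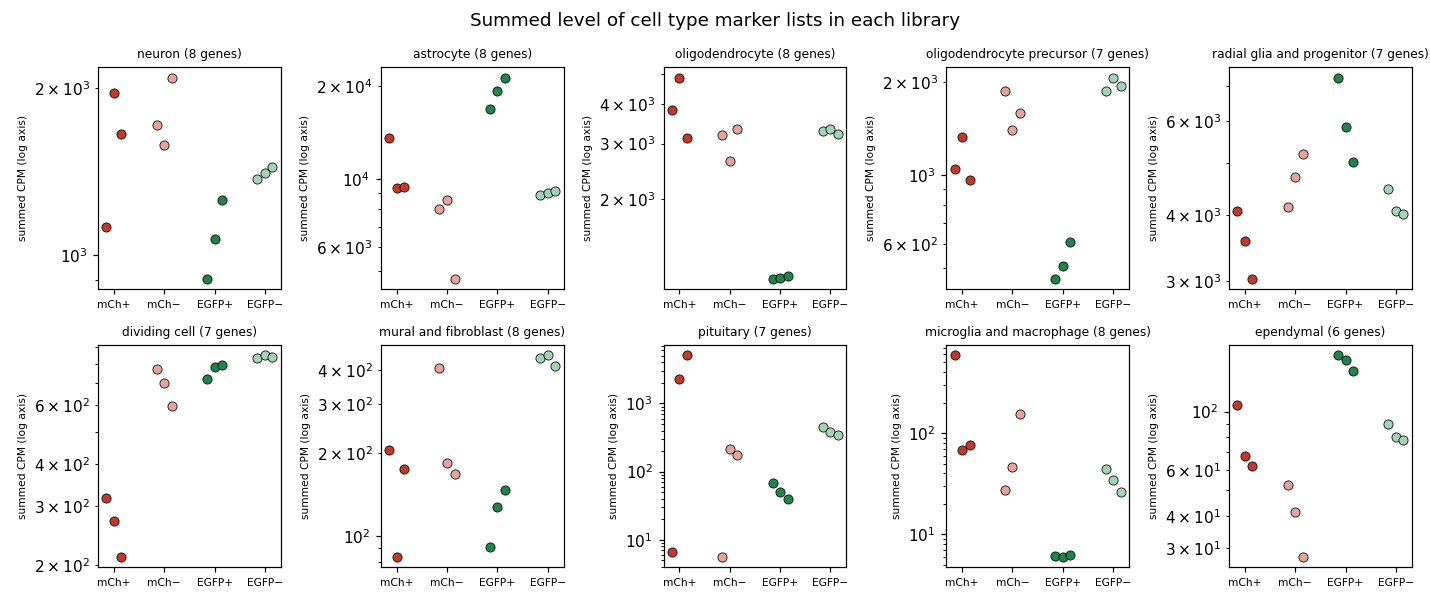
Summed CPM of 10 marker lists in each library (points, log axes, with the number of genes found in each title), for the same 4 groups. Oligodendrocyte and precursor lists are lowest in the 3 EGFP-positive libraries, and the dividing cell list is lowest in the 3 mCherry-positive libraries.

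Whether a gene responded differently in the sorts was tested as the mCherry effect minus the EGFP effect, in a fit of all 12 libraries. Dscam, Reln, Plxnb3 and Sema5a differed, 4 of 66 members (6.06%), against 1.44% of all 18063 genes tested (0.886% higher and 0.559% lower). All 4 were positive, and 0 members were called negative by edgeR, against 1 by DESeq2. An unadjusted p under 0.05 was found for 16 members of either sign, 24.2% beside 15.1% of all genes. For Dscam the difference was 2.69 ± 0.34 (SE) on the log2 scale (adjusted p = 0.00289), for Reln 2.48 ± 0.39 (0.0122), for Sema5a 1.89 ± 0.31 (0.0139) and for Plxnb3 2.28 ± 0.41 (0.0202), by edgeR's quasi-likelihood test. Dscam, Plxnb3 and Sema5a fell in the EGFP sort without a call in the mCherry sort, and Reln rose in the mCherry sort without a call in the EGFP sort, where it stood at 15.2 ± 3.97 and 15.96 ± 3.54 CPM (SD, n = 3). Plxnb3 lost this call without EGFP-positive replicate 2 or any EGFP-negative replicate (adjusted p up to 0.0691), and Sema5a without EGFP-negative replicate 3 (0.0536). For Slit2 the difference was 1.10 ± 0.53 (SE) with an adjusted p of 0.344, so a larger rise in the mCherry sort was not shown. Members without a call included Plxnb2 (-0.18 ± 0.35 SE), Sema6a (0.01 ± 0.31), Efnb3 (0.28 ± 0.25), Ephb6 (0.14 ± 0.23), Slit1 (-0.49 ± 0.46), Robo2 (-0.46 ± 0.40), Ntn4 (-0.77 ± 0.29), Unc5a (1.09 ± 0.49), Dcc (0.58 ± 0.53) and Nrp2 (0.88 ± 0.37).

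**Figure D4:**
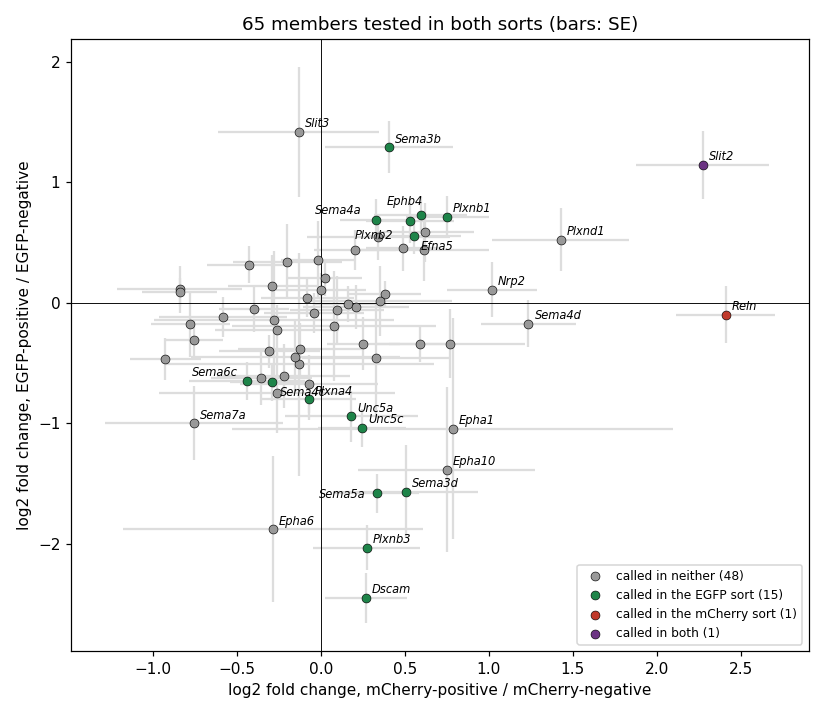
Log2 fold change, positive over negative cells, in the mCherry sort (x axis) and the EGFP sort (y axis) for the 65 members tested in both, with SE bars and colours for the calls. Slit2 is the 1 member called in both, Reln lies far right near 0 on the y axis, and Dscam, Plxnb3 and Sema5a lie low at 0.27 to 0.33 on the x axis.

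The 4 groups also differed by sort. The mean of both mCherry groups was set against the mean of both EGFP groups. Virus, reporter, RNA input (0.8 ng against 2 ng) and possibly culture go with the sort and cannot be told apart, so the values describe the 2 sorts only. Of 66 members, 15 were higher in the mCherry sort and 5 lower, together 30.3%, against 18.5% of all genes tested (10.5% and 8.04%). The medians were 0.18 and -0.01.

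Eph receptors and ephrins gave 11 of the 20 calls, with 14 Eph receptors and 8 ephrins tested, beside 18.5% called of all genes tested. Efnb2 was higher in all 6 mCherry libraries (35.5 to 85.5 CPM) than in any EGFP library (17.5 to 31.9 CPM), with a log2 difference of 1.02 ± 0.14 (SE) and an adjusted p of 2.16e-04. Its receptor genes Ephb1 (0.70 ± 0.11 SE) and Ephb2 (1.04 ± 0.20 SE) were higher in the mCherry sort too, while Ephb4 was lower (-0.49 ± 0.15 SE). Efna2 was higher, at 20.2 ± 2.95 and 34.9 ± 7.57 CPM in mCherry-positive and mCherry-negative against 10.6 ± 4.48 and 11.8 ± 0.320 CPM in EGFP-positive and EGFP-negative cells (SD, n = 3). Epha4, a receptor for both ephrin classes, was lower, at 18.8 to 34.5 CPM in mCherry and 44.7 to 62.3 CPM in EGFP libraries, without overlap (-0.99 ± 0.16 SE, adjusted p 9.31e-04). Efnb1 was lower by 0.59 ± 0.12 (SE) on the log2 scale, with overlap between libraries. Epha6, Epha8 and Epha10 were scarce. They had 20, 33 and 30 reads in EGFP-positive and 287, 224 and 538 reads in mCherry-positive cells, with log2 differences of 2.54 ± 0.62, 2.31 ± 0.49 and 2.48 ± 0.46 (SE) between the sorts. Single libraries of Epha6 ran from 1.31 to 5.86 CPM in mCherry-positive and from 0.545 to 7.64 CPM in mCherry-negative cells. They overlapped the EGFP-negative libraries (0.419 to 1.47 CPM), while Epha8 and Epha10 had no overlap between the sorts. Epha8 varied widely in mCherry-negative libraries, at 1.38, 1.20 and 5.90 CPM. Epha7 was higher by 0.65 ± 0.21 (SE).

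Among semaphorins and plexins, Plxnc1, the Sema7a receptor, was higher in the mCherry sort without overlap (1.03 ± 0.16 SE, adjusted p 5.50e-04), and Plxna1 (0.64 ± 0.17 SE) and Sema6c (0.64 ± 0.21 SE) were higher with overlap. Sema3b (-0.98 ± 0.19 SE) and Sema4b (-0.71 ± 0.21 SE) were lower. Dscam (1.90 ± 0.17 SE) and Plxnb3 (0.84 ± 0.20 SE) were higher, but their EGFP-negative libraries (25.1 to 35.8 CPM and 156 to 159.9 CPM) stood near the mCherry ones (34.5 to 62.4 and 64.4 to 182 CPM), and the EGFP-positive libraries stood apart. Ntn4 (0.87 ± 0.15 SE) and Unc5a (1.17 ± 0.25 SE) were higher. Members without a call included Plxnb2 (-0.38 ± 0.17 SE), Sema6a (-0.30 ± 0.15), Efnb3 (0.11 ± 0.12), Ephb6 (-0.13 ± 0.12), Slit1 (-0.24 ± 0.23), Robo2 (0.40 ± 0.20), Ntn1 (-0.43 ± 0.15), Dcc (0.48 ± 0.27), Nrp2 (-0.17 ± 0.18) and Reln (0.07 ± 0.19). With 1 library left out, 5 of the 20 lost their call in some fits: Epha7 and Sema6c in 10 of 12, Ephb4 in 7, Sema4b in 5 and Plxna1 without EGFP-negative replicate 3 (adjusted p 0.0535). Epha6 lost its call with limma-voom (adjusted p 0.0853), as did Sema6c (0.0859), and Ephb4 lost its call with the stricter filter (0.0511). The highest adjusted p with 1 library left out was 0.126 for Epha7, without mCherry-negative replicate 2, and 0.114 for Sema6c, without mCherry-positive replicate 3.

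**Figure D5:**
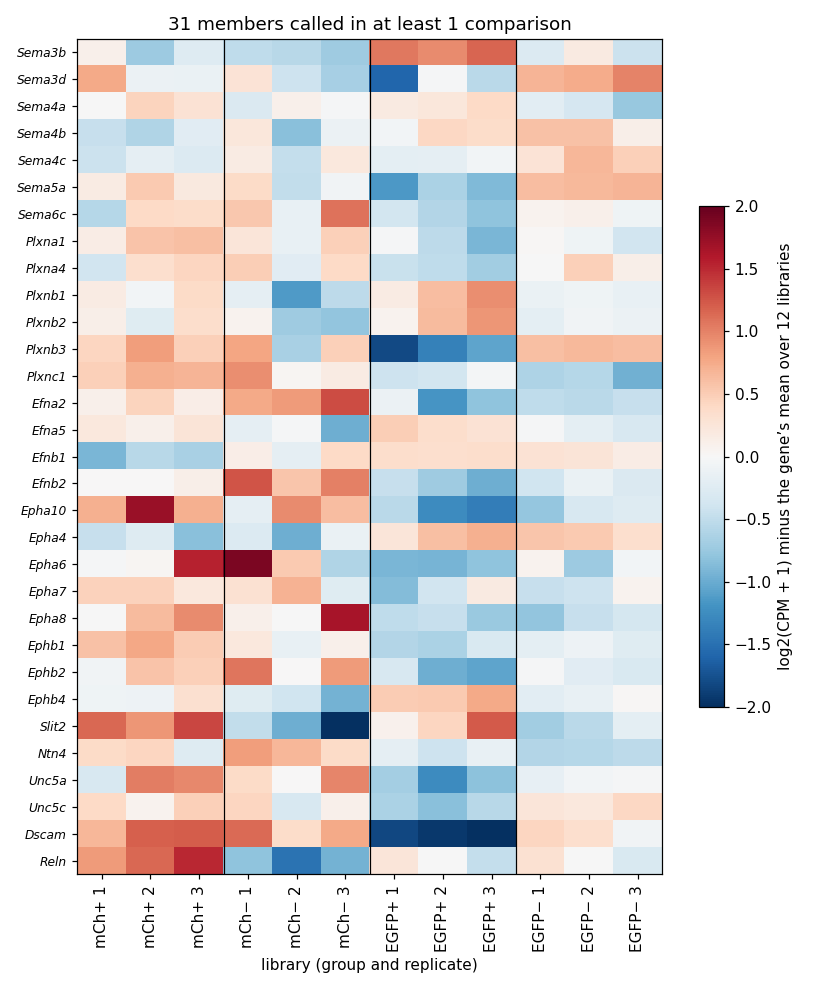
Level of the 31 members called in at least 1 comparison, as log2(CPM + 1) minus each gene's mean over 12 libraries, by library. Dscam, Plxnb3 and Sema5a are low (blue) in the 3 EGFP-positive libraries, and Reln and Slit2 are high (red) in the 3 mCherry-positive libraries. Slit2 also reaches 84.3 CPM in EGFP-positive replicate 3.

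Beyond the members, 62 other genes of guidance and reelin signalling were listed (co-receptors, adhesion molecules, collapsin response mediators, cytoskeletal effectors and reelin receptors). In the mCherry sort 0 of 60 tested were called by edgeR, with 12 of 60 at an unadjusted p under 0.05, beside 18.6% of all genes, while DESeq2 called 4 higher and 2 lower, 10.0% beside 8.50% of all genes. For the difference of effects edgeR called 0 of 61, with 14 (23.0%) at an unadjusted p under 0.05, beside 15.1% of all genes, and DESeq2 called 5 (8.20% beside 4.93% of all genes). In the EGFP sort 4 rose and 14 fell of 60, together 30.0%, beside 16.1% of all genes tested. The falls of smallest adjusted p were the chemokine gene Cxcl12 (log2 fold change -3.01 ± 0.28 SE), the exchange factor gene Trio (-1.52 ± 0.16 SE), the collapsin response mediator genes Dpysl3 (-0.91 ± 0.10 SE) and Dpysl4 (-0.90 ± 0.10 SE), the growth cone gene Gap43 (-1.01 ± 0.14 SE) and the kinase gene Fyn (-0.71 ± 0.10 SE). The list's median was -0.12. The reelin receptor genes Vldlr and Lrp8 and the adaptor gene Dab1, chosen after their values were seen, had no call in the mCherry sort, at 0.05 ± 0.17, 0.05 ± 0.22 and 0.07 ± 0.18 (SE), beside the rise of Reln. Between the sorts 18 were higher and 6 lower in mCherry cells of 61, together 39.3%, beside 18.5% of all genes tested, among them the Rac regulator gene Chn1 (1.94 ± 0.12 SE), the repulsive guidance genes Rgmb (1.43 ± 0.13 SE) and Rgma (-0.88 ± 0.13 SE), Lrp8 (0.98 ± 0.14 SE), Limk1 (0.87 ± 0.14 SE) and Fyn (0.53 ± 0.09 SE).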

How the data were processed

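RNA from 12 sorted samples was sequenced after SMART-Seq v4 cDNA synthesis from 0.8 ng (mCherry sort) or 2 ng (EGFP sort) of RNA with 11 PCR cycles and Nextera XT libraries, per the labels. The deposited files hold raw counts of reads per Ensembl gene, not normalized by the authors. The submitters' processing notes name cutadapt 1.8, STAR 2.5.2b, HTSeq 0.6.1 and GRCm38, while the annotation release and strand setting are not given in the sources used here, so reads of antisense partners may not be separable. The entries that name no gene held 31.4% to 38.2% of reads and were left out. Symbols, positions and exonic lengths came from GENCODE M21 (48349 of 48709 identifiers matched). Promoter windows came from RefSeq (GRCm38.p6) for 59 members, and 10 had no entry.

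Each sort was fitted on its 6 libraries, and the difference of effects and the sort contrast on all 12, with edgeR 4.0.16 in R 4.3.3: TMM, filterByExpr (minimum count 10, minimum total 15), group as the only term, quasi-likelihood test, Benjamini-Hochberg adjustment over all genes tested, called at an adjusted p under 0.05. The SE was derived from the fold change and its F statistic. Levels are TMM-scaled CPM, and RPKM divides them by exonic kilobases. Alternatives used DESeq2 1.42.0, limma 3.58.1 voom, other filters and scaling, a replicate block and leaving out each library. The limit given for a count of 0 covers counting error only, since amplified reads lack molecular identifiers. No 2 replicates agreed within counting noise (chi-square per degree of freedom at least 6.54). The fits were tested on simulated data.

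All called members were named, with the member of highest RPKM per family among those not called, and Dcc, Dscam, Reln and Nrp2. Of the wider list up to 6 called genes per comparison were named. Members, lists and this rule were chosen with earlier results of these data known.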

Additional observations from a re-analysis of the deposited data

Results flagged for a closer look

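For 4 members the positive-against-negative effect differed between the mCherry and EGFP sorts by the test of the difference itself. On the log2 scale, mCherry effect minus EGFP effect, it was 2.69 for Dscam, 2.28 for Plxnb3, 2.48 for Reln and 1.89 for Sema5a. For Dscam, Plxnb3 and Sema5a it came with lower summed levels of oligodendrocyte and precursor markers in EGFP-positive libraries. The precursor markers were also lower in every mCherry-positive library, where these 3 genes had no call. For Reln the difference came with lower levels of dividing cell markers in mCherry-positive libraries. Dividing cell markers were also lower in every EGFP-positive library (719 to 793 against 830 to 848 CPM), where Reln had no call. Other lists moved in the sorted libraries too. Radial glia and progenitor sums were lower in every mCherry-positive library (3029 to 4075 against 4130 to 5204 CPM). They were higher in every EGFP-positive library. Astrocyte and ependymal sums were higher in the positive libraries of both sorts, without overlap. Neuron, microglia, mural and pituitary sums were lower in EGFP-positive libraries. The part of any of these lists was not tested.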

How the results depend on the processing

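By edgeR, 2 members were higher and 0 lower in the mCherry sort, with 12 at an unadjusted p under 0.05. With no filter the counts were 4 and 2, with DESeq2 7 and 4, and with all 12 libraries in 1 fit 6 and 3. The share of all genes called in this sort was 2.81%, 8.50% and 9.48% in these settings, beside 1.20% in the main fit. In the EGFP sort (7 higher, 9 lower) they were 1 and 4 in the fit of 12 libraries, and DESeq2 gave 14 lower. There the fit of 12 libraries called 4.43% of all genes and DESeq2 21.6%, beside 16.1% in the main fit. For the difference of effects (4 and 0) no filter gave 7 higher, the stricter filter 7, and DESeq2 8 higher and 1 lower. These settings called 2.27%, 2.47% and 4.93% of all genes, beside 1.44% in the main fit. Between sorts no filter and DESeq2 each gave 8 lower against 5. Leaving out each library in turn gave 0 to 2 higher and 0 lower in the mCherry sort, 1 to 15 higher and 4 to 15 lower in the EGFP sort, 2 to 6 higher and 0 lower for the difference, and 12 to 17 higher and 3 to 10 lower between sorts. Over all genes the share called in these fits ran from 0 to 1.17%, from 6.72% to 30.9%, from 0.143% to 3.15% and from 11.9% to 20.9%. DESeq2 size factors and limma-voom gave counts within 1.5 times of these.

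The replicate block gave 3 calls in the mCherry sort (Sema4d added), 18 in the EGFP sort, 6 for the difference and 23 between sorts, where Ephb4 lost its call (adjusted p 0.0624). In the same order, it called 1.97%, 20.9%, 1.62% and 19.95% of all genes tested. The main fit called 1.20%, 16.1%, 1.44% and 18.5%. Same-numbered libraries did not deviate together throughout (correlations -0.02 to 0.13 in the mCherry sort and -0.00 to 0.11 in the EGFP sort). With 3 libraries per group, such correlations cannot decide whether same-numbered libraries came from a shared culture. Pituitary markers were lowest in replicate 1 of both mCherry groups. Microglia and macrophage markers were highest in mCherry-positive replicate 1 but lowest in mCherry-negative replicate 1. Whether same-numbered libraries belong together is not known here.

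Called members kept their direction in every alternative. Some members without a call changed sign. In the mCherry sort Dcc went to 0.038 with limma-voom and 0.078 with the replicate block. In the EGFP sort Ephb6 went to 0.015 with no filter, 0.00069 with limma-voom and 0.011 in the fit of 12 libraries. Leaving out 1 library gave ranges across 0. In the mCherry sort they ran from -0.397 to 0.445 for Dcc, from -0.506 to 0.00064 for Robo2 and from -0.039 to 0.520 for Unc5a. In the EGFP sort they ran from -0.122 to 0.104 for Ephb6, from -0.276 to 0.095 for Reln, from -0.123 to 0.421 for Robo2, from -0.280 to 0.026 for Slit1, from -0.182 to 0.153 for Plxna3 and from -0.071 to 0.331 for Nrp2. For the difference they ran from -0.355 to 0.132 for Plxnb2 and from -0.164 to 0.269 for Sema6a, and between sorts from -0.043 to 0.154 for Reln. The cause was not tested. Depth limits Robo4, Sema3g, Ntn5, Epha1, Epha2 and Robo3, at 13 to 182 reads in all.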
